A study of Mus musculus with 6 samples.

Results

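The uptake, storage and export of lipid by macrophages was followed through 10 genes in mouse fibroblasts and in the macrophage-like cells sequenced beside them. The genes were chosen by symbol, as Lpl, Cd36, Apoe, Abca1, Abcg1, Pltp, Nr1h3, Nr1h2, Plin2 and Soat1, and all 10 were present among the 30445 genes of the count table. RNA was sequenced in 6 libraries, with 2 each for induced macrophages (iMac), for the population labelled myeloid-like cell complex (MCC) and for mouse embryonic fibroblasts (MEF). All 3 groups are labelled wild type. The conversion factor named in the series title is c-Myc, and the labels used here do not say how it was delivered or how MCC relate to iMac. The labels do not tell whether the 2 libraries of a group are separate cultures, so p-values measure only the spread between these libraries, which may be technical.

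Macrophages meet lipid in bulk when they engulf lipoproteins and dead cells, and a macrophage that cannot dispose of it becomes the foam cell of the atherosclerotic plaque. Lipoprotein lipase, encoded by Lpl, frees fatty acids from lipoproteins, and CD36 binds oxidised lipoproteins and moves fatty acids across the membrane. Surplus cholesterol is esterified by the enzyme of Soat1 and held in droplets coated by perilipin 2, the product of Plin2. The transporters ABCA1 and ABCG1 export cholesterol to acceptor particles, apolipoprotein E (Apoe) carries it away, and the phospholipid transfer protein of Pltp remodels the particles. The liver X receptors LXRα (Nr1h3) and LXRβ (Nr1h2) sense oxidised cholesterol and switch on Abca1, Abcg1, Apoe, Pltp and Lpl.

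The deposited counts summed to between 34389817 and 39174367 per library, and all 10 genes passed the filter that left 18613 genes to test. Levels are given as CPM, counts per 1e6 of the library total after that total was adjusted by TMM scaling. Shares of all counts use the unadjusted totals. The 8 macrophage markers examined, among them Csf1r, Cd68 and Lyz2, summed to 21251 and 17523 CPM in iMac, 10335 and 10234 CPM in MCC, and 5.17 and 7.60 CPM in MEF, where Itgam was at 0. The 8 fibroblast markers, among them Col1a1 and Pdgfra, summed to 14.1 and 10.9 CPM in iMac, 862 and 73.9 CPM in MCC, and 19307 and 8025 CPM in MEF. The MCC libraries therefore stood apart from each other, and the MEF libraries differed as well, so results that change without one of them are given both ways. In such bulk samples, fewer cells of a type and less RNA per cell cannot be told apart.

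Of the 10 genes, 9 rose in iMac against MEF and 9 rose in MCC against MEF, the exception in both being Nr1h2. None fell. The table as a whole had 25.1% of tested genes called higher in iMac against MEF and 23.4% in MCC against MEF, by edgeR's quasi-likelihood test at an adjusted p under 0.05. In either direction, 57.6% of tested genes were called in iMac and 53% in MCC, against MEF. The median log2 fold change of the 10 genes was 3.75 in iMac against MEF and 2.49 in MCC against MEF, beside -0.06 and -0.05 over all tested genes. These 2 comparisons share the MEF libraries. For all 10 genes both libraries of iMac, and both of MCC, lay above both MEF libraries, as they did for 39.1% of tested genes with iMac and 38.2% with MCC. None of the 10 lay wholly below MEF, where 43.5% of tested genes did with iMac and 42.4% with MCC. Together the 10 genes took 2.89% and 2.56% of all counts in iMac, 1.60% and 1.77% in MCC, and 0.0631% and 0.0838% in MEF.

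**Figure D1:**
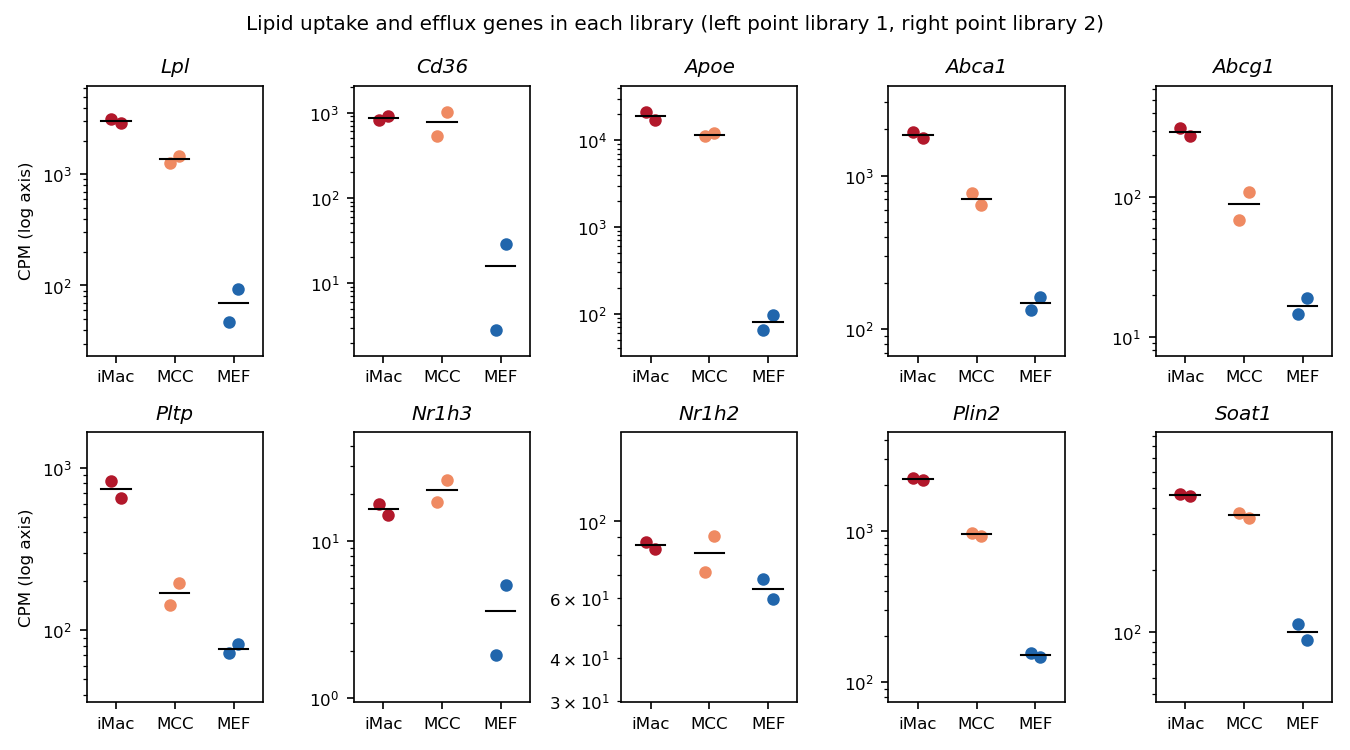
Level of each of the 10 genes in CPM (log axis) in the 2 libraries of iMac, MCC and MEF, with points for libraries and a black line for the group mean. Both iMac and both MCC libraries lie above both MEF libraries in every panel, and the Cd36 points of MEF lie far apart, at 2.79 and 29.0 CPM.

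Lpl (chr8:68880491-68907448 on the plus strand, mm10), the lipase that frees fatty acids from lipoproteins, had 3126 and 2919 CPM in iMac, 1265 and 1463 CPM in MCC, and 46.4 and 92.5 CPM in MEF. No group overlapped another, and the MEF libraries differed 1.99-fold. The log2 fold change was 5.44 ± 0.40 in iMac against MEF (SE; edgeR adjusted p = 0.00076) and 4.29 ± 0.38 in MCC against MEF (edgeR adjusted p = 0.00154). Without MEF library 2 the change in MCC was 4.93.

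Cd36 (chr5:17781690-17888801, minus strand), the fatty acid and oxidised lipoprotein receptor, had 812 and 920 CPM in iMac, 533 and 1025 CPM in MCC, and 2.79 and 29.0 CPM in MEF. Its 2 MEF libraries differed 10.4-fold and its MCC libraries 1.92-fold, the widest spreads of any of the 10 genes in those groups. The iMac libraries lay within the range of the MCC libraries. Cd36 rose by 5.77 ± 1.21 on the log2 scale in iMac against MEF (edgeR adjusted p = 0.0128) and by 5.61 ± 1.21 in MCC against MEF (edgeR adjusted p = 0.0157). The size of the rise depended on which fibroblast library stood for MEF. It was 4.91 in iMac and 4.75 in MCC without MEF library 1, and 8.25 in iMac and 8.16 in MCC without MEF library 2. The call in iMac against MEF was lost without iMac library 1 (edgeR adjusted p = 0.0518) and without iMac library 2 (edgeR adjusted p = 0.0541). Those fits take the spread from the MCC and MEF libraries alone.

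The fibroblast library with more Cd36 also had more of most adipocyte markers, and adipocytes express Cd36 and Lpl. The 7 adipocyte markers examined summed to 24.3 and 21.9 CPM in iMac, 52.3 and 31.4 CPM in MCC, and 24.1 and 105 CPM in MEF. Fabp4, which macrophages also express, made up 24.0 and 21.7 CPM of the sums in iMac, where Cidec, Lep and Cfd were at 0. In MEF, Adipoq was at 1.33 and 10.7 CPM and Plin1 at 0.677 and 11.3 CPM in libraries 1 and 2. The part of these cells in the Cd36, Nr1h3 and Lpl levels of MEF was not tested.

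Apoe (chr7:19696109-19699188, minus strand), the apolipoprotein that macrophages secrete, had the highest level of the 10 genes in iMac and MCC. It had 21008 and 17279 CPM in iMac, 11095 and 12024 CPM in MCC, and 65.5 and 95.8 CPM in MEF. The groups did not overlap, and iMac stood 237-fold and MCC 143-fold above MEF. The log2 fold change was 7.89 ± 0.33 in iMac against MEF (edgeR adjusted p = 0.000173) and 7.16 ± 0.32 in MCC against MEF (edgeR adjusted p = 0.000258). Per kilobase of exon, Apoe ranked 3 in iMac and 2 in MCC among 29521 genes with a single match in the annotation, and 1196 in MEF. Apoe alone made up 1.97% and 1.67% of all counts in iMac, 1.16% and 1.26% in MCC, and 0.00617% and 0.0103% in MEF.

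The cholesterol exporters, already expressed in the fibroblasts, rose in both iMac and MCC. Abca1 (chr4:53030787-53159895, minus strand), which loads cholesterol onto lipid-poor apolipoproteins, had 1921 and 1768 CPM in iMac, 765 and 646 CPM in MCC, and 133.5 and 163 CPM in MEF. Abcg1 (chr17:31057675-31117988, plus strand), which supplies mature high-density lipoprotein, had 313 and 276 CPM in iMac, 68.8 and 109 CPM in MCC, and 14.5 and 18.7 CPM in MEF. For both transporters the 3 groups were ordered iMac, MCC, MEF with no overlap. Abca1 rose by 3.64 ± 0.17 on the log2 scale in iMac (edgeR adjusted p = 0.00024) and by 2.25 ± 0.16 in MCC (edgeR adjusted p = 0.000934), each against MEF. Abcg1 rose by 4.15 ± 0.29 in iMac (edgeR adjusted p = 0.000656) and by 2.42 ± 0.27 in MCC (edgeR adjusted p = 0.00264), again on the log2 scale against MEF. Per kilobase, Abcg1 made up 18.8% and 18.2% of the summed Abca1 and Abcg1 level in iMac, 11.3% and 19.3% in MCC, and 13.4% and 14.1% in MEF, so that ABCA1 transcripts were the more abundant in every library.

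Pltp (chr2:164839518-164857711, minus strand) encodes the phospholipid transfer protein and stood out by how little of its rise was seen in MCC. It had 823 and 647 CPM in iMac, 143 and 194 CPM in MCC, and 71.9 and 81.7 CPM in MEF. MCC lay near MEF and far below iMac. The log2 fold change was 3.26 ± 0.22 in iMac against MEF (edgeR adjusted p = 0.000608) and 1.14 ± 0.20 in MCC against MEF (edgeR adjusted p = 0.00979). Of the exonic bases of Pltp, 19.3% are shared with Ctsa, a lysosomal protease gene on the opposite strand, and the labels do not give the strand setting of the counting, so reads of the pair may not be told apart. Ctsa had 1541 and 1555 CPM in iMac, 1161 and 1277 CPM in MCC, and 402 and 322 CPM in MEF. Its log2 fold change was 2.10 ± 0.15 in iMac and 1.75 ± 0.15 in MCC against MEF. The part of Ctsa reads in the Pltp counts was not tested.

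The pair of LXR genes differed. Nr1h3 (chr2:91184061-91202834, minus strand), which encodes LXRα, the receptor restricted to tissues of active lipid metabolism and to macrophages, had 17.2 and 14.6 CPM in iMac, 17.6 and 24.5 CPM in MCC, and 1.87 and 5.25 CPM in MEF. It had the lowest CPM of the 10 genes in each of the 6 libraries, and was the only one whose MCC libraries both lay above its iMac libraries. Nr1h3 rose by 2.16 ± 0.52 on the log2 scale in iMac (edgeR adjusted p = 0.0187) and by 2.56 ± 0.52 in MCC (edgeR adjusted p = 0.0136) against MEF. Without MEF library 2 the rises were 3.06 and 3.54. The iMac call was lost without iMac library 1 (edgeR adjusted p = 0.0822) or iMac library 2 (edgeR adjusted p = 0.0683).

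Nr1h2 (chr7:44549616-44553951, minus strand), which encodes the broadly expressed LXRβ, had 87.3 and 83.3 CPM in iMac, 71.0 and 90.8 CPM in MCC, and 67.9 and 59.4 CPM in MEF. The MEF libraries were the lowest, by a small margin. The log2 fold change was 0.42 in iMac against MEF, with a 95% interval of 0.04 to 0.80 (edgeR adjusted p = 0.0601), and 0.35 in MCC against MEF, with an interval of -0.03 to 0.73 (edgeR adjusted p = 0.105). The iMac value passed the threshold in 4 of the 14 alternative settings, among them those without MCC library 1 or MCC library 2. The MCC value passed it in 1, without MCC library 1. Over the alternatives the log2 fold change ran from 0.30 to 0.53 in iMac and from 0.27 to 0.52 in MCC, against MEF. Per kilobase, Nr1h3 made up 20.8% and 19.0% of the summed LXR level in iMac, 24.9% and 26.5% in MCC, and 3.54% and 10.5% in MEF. LXRβ transcripts were thus the majority in all 6 libraries, and the 3 groups did not overlap in the LXRα share. The share is given as a description, since an exact permutation test of 2 libraries against 2 cannot give a two-sided p below 0.333.

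The droplet genes rose with little spread between libraries. Plin2 (chr4:86648386-86670060, minus strand), whose product coats lipid droplets, had 2230 and 2162 CPM in iMac, 967 and 923 CPM in MCC, and 155 and 147 CPM in MEF. Soat1 (chr1:156424525-156474331, minus strand), which esterifies cholesterol for storage, had 466 and 458 CPM in iMac, 380 and 358 CPM in MCC, and 110.0 and 91.1 CPM in MEF. Both were ordered iMac, MCC, MEF without overlap. Plin2 rose by 3.86 ± 0.12 on the log2 scale in iMac (edgeR adjusted p = 8.73e-05) and by 2.65 ± 0.11 in MCC (edgeR adjusted p = 0.000201), against MEF. Soat1 rose by 2.20 ± 0.13 in iMac (edgeR adjusted p = 0.000404) and by 1.88 ± 0.13 in MCC (edgeR adjusted p = 0.000762). Per kilobase, Plin2 made up 95.9% and 95.8% of the summed level of the 5 perilipin genes in iMac, 94.1% and 93.1% in MCC, and 65.5% and 66.0% in MEF. Soat1 made up at least 96.4% of the summed Soat1 and Soat2 level in every library.

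**Figure D2:**
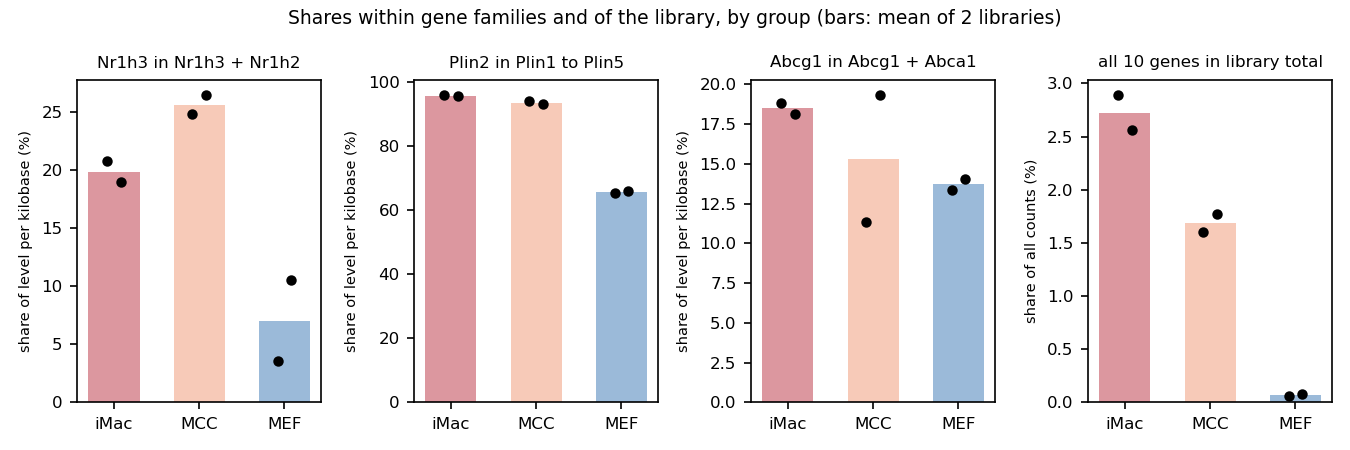
Shares, in percent, of Nr1h3 in the LXR pair, of Plin2 in the 5 perilipin genes, of Abcg1 in the pair with Abca1 (all from levels per kilobase) and of the 10 genes in all counts, with bars for the group mean and points for the 2 libraries. The Nr1h3 share is 20.8% and 19.0% in iMac, 24.9% and 26.5% in MCC, and 3.54% and 10.5% in MEF.

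The order of levels per kilobase of exon changed between the groups. In iMac it was Apoe (8954 CPM per kilobase), Plin2 (625), Lpl (288), Pltp (287), Cd36 (241), Abca1 (178), Soat1 (47.2), Abcg1 (40.4), Nr1h2 (25.4) and Nr1h3 (6.32). Pltp overlapped both Lpl and Cd36 there, and the others were separate from their neighbours. In MCC the same scale gave Apoe (5407), Plin2 (269), Cd36 (217), Lpl (130), Abca1 (68.1), Pltp (65.8), Soat1 (37.7), Nr1h2 (24.1), Abcg1 (12.2) and Nr1h3 (8.38). Plin2 overlapped Cd36 there, Abca1 overlapped Pltp, and Abcg1 overlapped Nr1h3. In MEF it gave Plin2 (42.9), Apoe (37.7), Pltp (30.0), Nr1h2 (19.0), Abca1 (14.3), Soat1 (10.3), Lpl (6.63), Cd36 (4.43), Abcg1 (2.28) and Nr1h3 (1.42). Apoe overlapped both Plin2 and Pltp in MEF, and Cd36 overlapped Lpl, Abcg1 and Nr1h3. Abcg1 and Nr1h3 also overlapped each other. Nr1h2 was thus the fourth of the 10 in the fibroblasts and stood behind 8 others in iMac.

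Over the 6 libraries the most alike pair among the 10 was Abca1 and Plin2, with a root mean square distance of 0.20 between their log2 levels after each was centred on its own mean. Abca1 and Abcg1 followed at 0.33. Among the 9108 genes searched, those nearest to Abca1 were Pdgfb (0.12) and Rcbtb2 (0.17), and Pdgfb (0.23) was also the nearest to Abcg1, before Zfyve28 (0.28). Nearest to Plin2 were Tmem229b (0.15) and Ctsb (0.16), to Soat1 Tec (0.054) and Ap1b1 (0.080), and to Pltp Gas7 (0.33) and Wwp1 (0.34). Nearest to Lpl were Sirpa (0.23) and Abcb4 (0.24), and to Apoe Cd37 (0.11) and Cd300lb (0.15). The receptor genes had Rcsd1 (0.14) and Mertk (0.18) nearest to Nr1h3, and Rnf123 (0.024) and Mat2b (0.030) nearest to Nr1h2. The nearest to Cd36 were Ccdc88b (0.64) and Selenop (0.68). Cd36 had the most distant nearest gene of the 10. These distances describe 6 libraries in 3 groups and were not tested.

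The start regions of Abca1 and Plin2, the most alike pair, are shown because they were also those of the members in which the E-box CACGTG, the site bound by Myc and its partner Max and by other factors of that class, was found. RefSeq (GRCm38.p6) promoters of 300 bases, 250 before the start and 50 after it, were matched for 8 of the 10 genes, in 11 entries, and those of Lpl and Abcg1 were not used here. Below are the 250 bases before the start and the first 2 after it, 5′ to 3′ on the strand of the gene, at chr4:53159894-53160145 (minus strand) for Abca1 and at chr4:86670058-86670309 (minus strand) for Plin2. Capitals mark the E-box in both and, in Plin2, TGACCT, the reverse complement of the nuclear receptor half-site AGGTCA.
Abca1: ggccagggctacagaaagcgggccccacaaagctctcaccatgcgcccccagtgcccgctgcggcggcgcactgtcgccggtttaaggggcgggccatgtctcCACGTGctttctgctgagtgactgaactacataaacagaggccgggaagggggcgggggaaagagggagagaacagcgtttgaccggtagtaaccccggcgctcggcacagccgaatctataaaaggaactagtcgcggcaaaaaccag
Plin2: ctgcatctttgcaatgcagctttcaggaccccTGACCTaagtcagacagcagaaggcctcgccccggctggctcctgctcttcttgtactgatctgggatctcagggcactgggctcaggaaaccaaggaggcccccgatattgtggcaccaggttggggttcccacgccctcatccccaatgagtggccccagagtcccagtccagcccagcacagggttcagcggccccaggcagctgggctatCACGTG

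Counted from the start, the first base of the E-box was at -147 in Abca1 and at -4 in Plin2. An E-box was present in 7.15% of the 32851 promoters in the set. The half-site AGGTCA, on either strand, was found in the windows of Cd36, at -228, and of Plin2, at -218, and in 16.3% of all promoters. An exact pair of AGGTCA in direct repeat with 4 bases between is the strict form of an LXR element. It was found in no window of the 8 genes and in 0.0152% of all promoters. The direct repeat with 1 base between, the form of a PPAR element, was in no window of the 8 genes and in 0.0396% of all promoters. The PU.1 site GAGGAAGT was in no window of the 8 genes and in 3.20% of all promoters. Both strands were searched, and half-sites within a repeat would have counted for both motifs. Only exact letters were searched, so an element that differs at any base would be missed. With exact repeats this rare over all promoters, finding none in these windows cannot show that LXR or PPAR elements are absent. A match is a run of letters only, and no binding was measured.

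Set against MCC, iMac had higher values for most of the 10 genes, but the fit to all 6 libraries called 0 of them and 4 of 18613 genes in all. That is 0.0215% of tested genes in either direction and 0.0107% called higher. At an unadjusted p under 0.05 the same edgeR test gave 7 of the 10 genes, all higher in iMac, where 7.69% of all tested genes were past that line in this direction and 18.2% in either. Both iMac libraries lay above both MCC libraries for 7 genes, below them for Nr1h3, and overlapped them for Cd36 and Nr1h2. Over all tested genes 27.7% lay wholly above and 27.9% wholly below. The median log2 fold change of the 10 genes was 0.94, beside -0.02 over all tested genes.

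Pltp had the widest difference of the 10, at a log2 fold change of 2.12 ± 0.21 in iMac against MCC (edgeR adjusted p = 0.0756). Abcg1 followed at 1.73 ± 0.26 (edgeR adjusted p = 0.101), then Abca1 at 1.39 ± 0.16 (edgeR adjusted p = 0.0756) and Plin2 at 1.22 ± 0.11 (edgeR adjusted p = 0.0752). These 4 are the phospholipid transfer protein, both exporters and the droplet coat. Lpl was at 1.15 ± 0.34 (edgeR adjusted p = 0.208), Apoe at 0.73 ± 0.25 (edgeR adjusted p = 0.238) and Soat1 at 0.32 ± 0.12 (edgeR adjusted p = 0.261). For Cd36, Nr1h2 and Nr1h3 the 95% intervals of the log2 difference reached across 0. They ran from -2.37 to 2.67 for Cd36, from -0.30 to 0.46 for Nr1h2 and from -1.66 to 0.84 for Nr1h3.

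These calls changed with the libraries fitted, the test used and the filter. When only the 4 iMac and MCC libraries were fitted, edgeR called 6 of the 10 genes higher in iMac, where 4.28% of the genes tested in that fit were called higher and 8.68% in either direction. The 6 were Pltp (log2 fold change 2.10 ± 0.19, adjusted p = 0.0123), Abcg1 (1.71 ± 0.22, adjusted p = 0.0206), Abca1 (1.36 ± 0.11, adjusted p = 0.0122), Plin2 (1.19 ± 0.07, adjusted p = 0.0112), Lpl (1.13 ± 0.09, adjusted p = 0.0119) and Apoe (0.70 ± 0.12, adjusted p = 0.0361). DESeq2 on all 6 libraries called the same 6, with 6.41% of tested genes called higher and 14.7% in either direction. Limma-voom called Pltp, Abcg1, Abca1 and Plin2, with 0.543% called higher and 0.784% in either direction. With no filter on low counts, edgeR called Pltp, Abca1 and Plin2, with 0.131% called higher and 0.292% in either direction. Without MCC library 2, edgeR called those same 4, with 0.332% of tested genes called higher and 6.04% in either direction, and without MCC library 1 it called 0. MCC library 1 is the one with 862 CPM of fibroblast markers against 73.9 CPM in MCC library 2. Between the MCC libraries, 7 of the 10 genes were lower in library 1 and 3, Abca1, Plin2 and Soat1, were higher. The part of these cells in the differences was not tested.

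**Figure D3:**
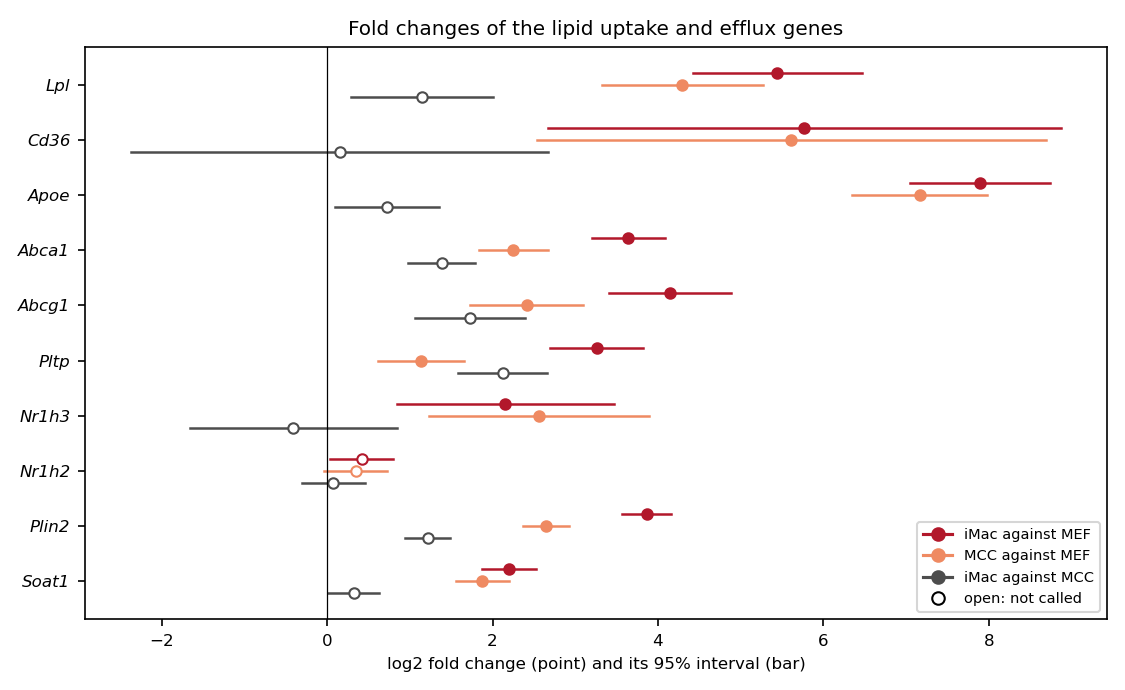
Log2 fold changes of the 10 genes (points, filled where called in the fit to all 6 libraries) with their 95% intervals (bars) for iMac against MEF, MCC against MEF and iMac against MCC. Pltp has the widest difference of iMac against MCC, at 2.12, and Nr1h2 stays within 0.42 of 0 in each comparison.

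To set the 10 genes in their pathway, 64 other genes of lipid handling were grouped into 6 lists by role. Of the 62 that were tested, 29 rose and 20 fell in iMac against MEF, or 46.8% and 32.3%, beside 25.1% and 32.5% of all tested genes. In MCC against MEF 25 rose and 18 fell, or 40.3% and 29.0%, beside 23.4% and 29.6% of all tested genes. In iMac against MCC edgeR called 0 of them, while 23, or 37.1%, were at an unadjusted p under 0.05, where 18.2% of all tested genes were. DESeq2 called 20, or 32.3%, beside 14.7% of all tested genes, and limma-voom called 6, or 9.68%, beside 0.784%. The number called in iMac against MEF, 49 in all, was 30 without iMac library 1 and 32 without iMac library 2.

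The uptake genes moved in opposite directions. Of 12 tested, 6 rose and 3 fell in iMac against MEF, and 6 rose and 4 fell in MCC against MEF, with median log2 fold changes of 0.25 in both. In iMac that is 50% higher and 25% lower, beside 25.1% and 32.5% of all tested genes. In MCC it is 50% and 33.3%, beside 23.4% and 29.6%. The falls in MCC were 2 without iMac library 1 and 2 without iMac library 2. Msr1, the class A scavenger receptor for modified lipoproteins, averaged 273 ± 10.3 CPM in iMac and 0.0915 ± 0.0527 CPM in MEF (SD, n = 2 each). The log2 fold change was 11.48, or 12.18 without MEF library 2, and rested on only 2 and 5 counts in MEF. Counting error on so few reads leaves its size uncertain. Msr1 was also higher in MCC than in MEF, at 474 and 538 CPM in the MCC libraries. Vldlr, a receptor for triglyceride-rich lipoproteins, had 3 counts in all in iMac and 4369 in MEF, a ratio of 1282 in favour of MEF with a 95% counting interval of 438 to 6220. It lost its call without iMac library 2 (edgeR adjusted p = 0.0553). Lipg, the endothelial lipase gene, averaged 0.0897 ± 0.0842 CPM in iMac and 23.5 ± 2.97 CPM in MEF, and its log2 fold change of -7.98 ± 0.90 was -9.44 without iMac library 1 and -7.25 without iMac library 2. Lrp1, a large receptor with many ligands named after its values were seen, averaged 2473 CPM in iMac and 2673 CPM in MEF and was not called.

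Most genes that release lipid from lysosomes or move sterol onward rose in iMac. Of 7 tested, 6 rose in iMac and 4 in MCC against MEF, and 0 fell. In iMac that is 85.7% higher and 0% lower, beside 25.1% and 32.5% of all tested genes. In MCC it is 57.1% and 0%, beside 23.4% and 29.6%. With DESeq2 1 was called lower in MCC, the sterol carrier gene Osbp, named after its values were seen (log2 fold change -0.34, adjusted p = 0.0293). The rises in iMac were 5 with library totals. In MCC they were 3 with median-ratio scaling, with a replicate block and with only the groups compared, and 5 with the filter of 5 CPM. Leaving out either iMac library also gave fewer rises in iMac. The rises in MCC were fewer without MEF library 1, MCC library 1 or either iMac library. Median log2 fold changes over the list were 0.79 in iMac and 0.59 in MCC. Lipa, the acid lipase that hydrolyses cholesteryl esters in lysosomes, averaged 753 ± 101 CPM in iMac and 79.5 ± 16.6 CPM in MEF, a log2 fold change of 3.24 ± 0.21. Gramd1b, which carries cholesterol from the plasma membrane to the endoplasmic reticulum, rose by 2.13 ± 0.20, and Stard3, a sterol tether of late endosomes, by 1.60 ± 0.13 on the log2 scale. Npc2, which hands on cholesterol within lysosomes, rose by 0.79 ± 0.12 and lost its call without iMac library 1 (edgeR adjusted p = 0.0508).

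Among 8 other genes of efflux and of apolipoproteins, 5 rose and 2 fell in iMac, and 5 rose and 1 fell in MCC, against MEF, with medians of 3.58 in iMac and 2.88 in MCC. In iMac that is 62.5% higher and 25% lower, beside 25.1% and 32.5% of all tested genes. In MCC it is 62.5% and 12.5%, beside 23.4% and 29.6%. In iMac the falls were 1 without either MEF library and 0 without either iMac library, and in MCC they were 0 without MEF library 2, MCC library 2 or either iMac library. Apoc1, the neighbour of Apoe on chromosome 7, averaged 60.3 ± 4.42 CPM in iMac and 0.17 ± 0.0872 CPM in MEF. The log2 fold change was 8.43, or 9.05 without MEF library 2, and its size is uncertain with only 4 and 9 counts in MEF. Cyp27a1, which makes the LXR ligand 27-hydroxycholesterol, averaged 121 ± 3.07 CPM in iMac and 1.76 ± 0.235 CPM in MEF, a log2 fold change of 6.10 ± 0.17. Abca7, a relative of Abca1, rose by 1.05 ± 0.18. Apoc4, of the same gene cluster as Apoe and named after its values were seen, had 5.76 and 6.45 CPM in iMac, 5.07 and 3.69 CPM in MCC and no counts in MEF. Against 3 counts over the MEF group it was at least 154-fold higher in iMac and at least 111-fold higher in MCC. Apoc2, also named after its values were seen, was among the rises with 29 and 9 counts in iMac, 10 and 10 in MCC and 0 in MEF. Of its exonic bases, 79.5% are shared with Gm44805 on the same strand. Its call was lost in iMac without iMac library 1, and in MCC without any 1 of the MEF or MCC libraries. The rises were 4 in iMac and 4 in MCC with the filter of 5 CPM and with only the groups compared.

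The storage list was called about as often as the whole table. Of 16 genes, 4 rose and 6 fell in iMac, and 3 rose and 5 fell in MCC, against MEF, with medians of -0.098 in iMac and 0.074 in MCC. In iMac that is 25% higher and 37.5% lower, beside 25.1% and 32.5% of all tested genes, and in MCC 18.8% and 31.2%, beside 23.4% and 29.6%. In iMac it was 2 rises and 6 falls with median-ratio scaling and 4 rises and 3 falls with the filter of 5 CPM, and in MCC 3 rises and 3 falls with that filter. Without iMac library 1 or 2 it was 2 rises and 4 falls in iMac, and without MEF library 2 it was 5 rises and 3 falls in MCC. Nceh1, a hydrolase of cholesteryl esters in macrophages, averaged 231 ± 13.1 CPM in iMac and 36.2 ± 8.29 CPM in MEF, a log2 fold change of 2.67 ± 0.18. Pnpla2, the main triglyceride lipase of droplets, rose by 2.11 ± 0.20 on the log2 scale, while Abhd5, its co-activator, fell by 0.92. Mgll, which cleaves monoglycerides, averaged 0.809 ± 0.207 CPM in iMac and 41.6 ± 27.8 CPM in MEF. Its log2 fold change of -5.68 ± 0.87 was -4.74 without MEF library 1. Plin1, Plin4 and Cidec, droplet genes typical of adipocytes and named after their values were seen, were among the falls. They were at or below 0.151 CPM in each iMac library, and at 0.677, 5.74 and 0.352 CPM in MEF library 1 and 11.3, 14.2 and 4.92 CPM in MEF library 2. Plin1 and Cidec lost their calls in iMac against MEF without either iMac library.

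Nuclear receptors and their coregulators were mixed too. Of 8 tested, 4 rose and 3 fell in iMac, and 3 rose and 3 fell in MCC, against MEF, with medians of 0.54 in iMac and 0.28 in MCC. In iMac that is 50% higher and 37.5% lower, beside 25.1% and 32.5% of all tested genes. In MCC it is 37.5% and 37.5%, beside 23.4% and 29.6%. Without iMac library 1 or 2 it was 3 rises and 0 falls in iMac. Rxra and Rxrb encode the obligate partners of the LXRs, and in iMac they rose by 0.90 ± 0.13 and 1.36 ± 0.10 on the log2 scale. Ncoa1, a coactivator, rose by 1.01 ± 0.15. Pparg, a fatty acid receptor that controls Cd36, had 30.59 and 30.62 CPM in iMac, 18.1 and 22.03 CPM in MCC, and 4.20 and 12.5 CPM in MEF. Its log2 fold change of 1.87 ± 0.51 in iMac against MEF was 2.84 without MEF library 2 and lost its call without iMac library 1 (edgeR adjusted p = 0.0981) or iMac library 2 (edgeR adjusted p = 0.0992).

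Other known LXR target genes were called in both directions. Of 11, 4 rose and 6 fell in iMac, and 4 rose and 5 fell in MCC, against MEF, with medians of -0.98 in iMac and -0.55 in MCC. In iMac that is 36.4% higher and 54.5% lower, beside 25.1% and 32.5% of all tested genes. In MCC it is 36.4% and 45.5%, beside 23.4% and 29.6%. Mylip, which encodes a ubiquitin ligase, averaged 84.5 ± 7.03 CPM in iMac and 20.6 ± 2.83 CPM in MEF, a log2 fold change of 2.03 ± 0.16. Arl4c, a small GTPase gene, rose by 2.10 ± 0.24, and the other two that rose were Smpdl3a (1.33 ± 0.12) and Mertk, which averaged 113 ± 5.55 CPM in iMac and 28.3 ± 15.2 CPM in MEF, both named after their values were seen. Mertk lost its call without iMac library 1 (edgeR adjusted p = 0.053), and its log2 fold change was 2.66 without MEF library 2. The 6 that fell, of which only Scd1 and Scd2 were named by rule, are Scd1, Scd2, Srebf1, Fasn, Acaca and Elovl5. Scd1, a desaturase, averaged 2.65 ± 0.979 CPM in iMac and 385 ± 214 CPM in MEF, a log2 fold change of -7.18 ± 1.05, or -6.48 without MEF library 2. Scd2, its relative, averaged 325 ± 5.68 CPM in iMac and 1853 ± 643 CPM in MEF, a log2 fold change of -2.51 ± 0.28. Srebf1, the regulator of lipid synthesis, was at -1.24 ± 0.30, Fasn at -1.07 ± 0.21 and Acaca at -0.98 ± 0.16, and Elovl5 was the other that fell (edgeR adjusted p = 0.0117). Srebf1, Fasn, Acaca and Elovl5 each lost their call without iMac library 1 or iMac library 2, which left 2 falls in either fit. In MCC the falls were 3 without each of MCC library 1, MCC library 2, iMac library 1 and iMac library 2. Among known targets of the LXR pair, the exporters and Apoe were thus higher and both desaturases lower in the same iMac libraries.

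**Figure D4:**
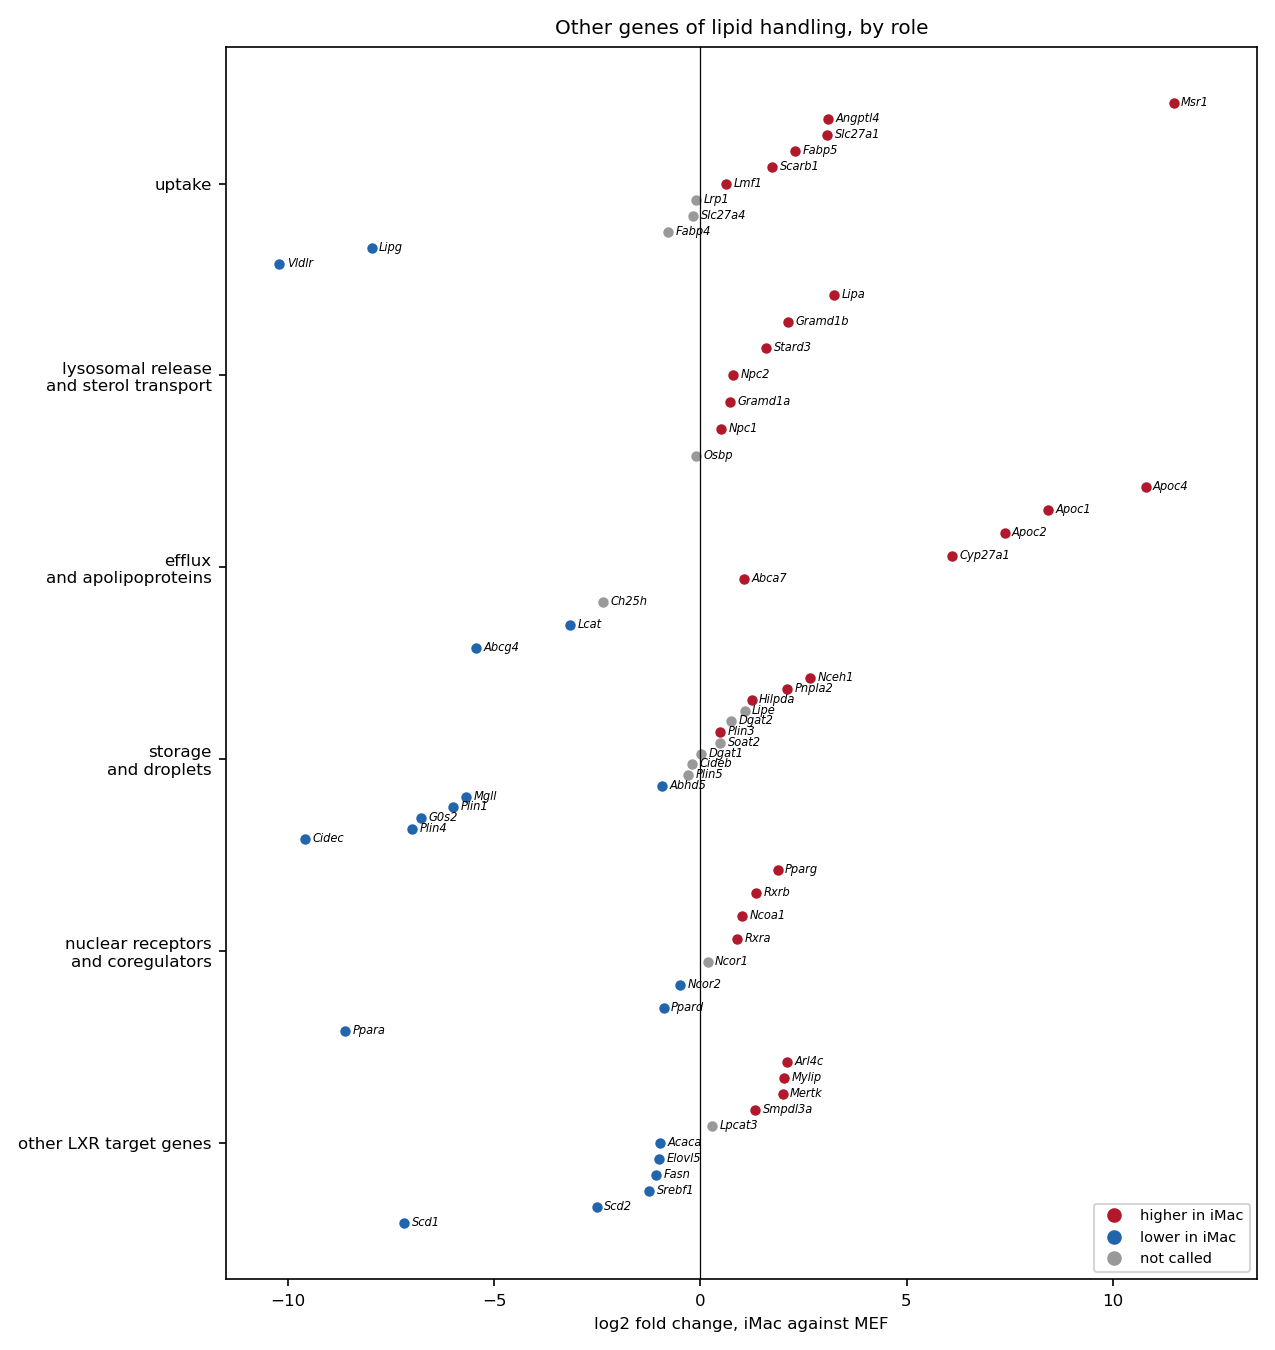
Log2 fold change of iMac against MEF for tested genes of the 6 lists, coloured by whether they were called higher, lower or not called in the fit to all 6 libraries. In the list of other LXR target genes, 4 lie to the right and 6 to the left as called genes, with Scd1 at -7.18. The places of genes with few or no counts in a group, such as Apoc4, Apoc2, Cidec, Ppara and Vldlr, depend on the prior count of the fit.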

How the data were processed

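The authors deposited gene-level counts, not normalized, for the 6 libraries. The submitters' processing notes name STAR, featureCounts and the build mm10, without versions; annotation, strand setting and the treatment of reads with several matches are not given in the labels or notes. Trizol and an mRNA library kit were used, per the labels' protocols.

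The counts as deposited entered edgeR 4.0.16 (filterByExpr, TMM scaling, two-sided quasi-likelihood test, group as the only term, all 6 libraries, 3 residual degrees of freedom). P-values were adjusted by Benjamini-Hochberg across the 18613 genes that passed and called under 0.05; 11832 genes were filtered out. A standard error is the log2 fold change over the square root of F. It can be too small where a group has few counts, so none is given for Msr1 and Apoc1. The prior count was 0.125. Levels per kilobase use the union of exons in GENCODE mouse release 21 on GRCm38, the assembly of mm10; 29521 of 30445 symbols matched 1 gene. Intervals on counts cover counting error only. Distances used log2 of CPM plus 0.5, over genes at 20 CPM or more in a group. Per list, up to 4 genes are named: those with the largest change in iMac against MEF among genes called in a comparison and at 20 CPM or more in a group; others were chosen after their values were seen. For 1 gene of the uptake list, which is counted there but not plotted, no values are reported here. The edgeR fit was first tested on simulated counts with known changes.

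The members, lists and tests were chosen with earlier results of these data known. Alternatives were median-ratio scaling, library totals, DESeq2 1.42.0, limma-voom (limma 3.58.1), leaving out each library, a replicate block, fitting just the 2 groups in question, no filter, and a minimum of 5 CPM in 2 libraries.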

Additional observations from a re-analysis of the deposited data

How the results depend on the processing

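Of the 10 genes, 9 or 10 were called in iMac against MEF and in MCC against MEF under every alternative that kept all libraries. With a library left out the number ran from 7 to 10 in iMac against MEF and from 9 to 10 in MCC against MEF. In iMac against MCC, where all 6 libraries gave 0, it was 6 with DESeq2, 4 with limma-voom, 3 with no filter, 6 with only the groups compared and 0 to 4 when a library was left out. The fit of 2 groups takes its spread from 4 libraries and leaves out those of MEF, the group whose libraries differed most. The cause of these changes was not tested. With a replicate block the counts were 9, 9 and 0. The replicate numbers are shared labels only: deviations of same-numbered libraries correlated at 0.19 for MCC and MEF, 0.01 for iMac and MEF and 0.03 for iMac and MCC. Of the recomputed fold changes of single genes, 385 kept their direction and side of the threshold, 28 newly passed it, 4 no longer passed it and 3 reversed. The reversals were in iMac against MCC, none of them called. With a library left out, Cd36 there ran from -0.27 to 0.57 and Nr1h2 from -0.12 to 0.13, both negative without MCC library 1. With library totals Nr1h2 was at -0.064, where the median of all genes was at -0.16. Over the whole table, 10719 genes called in iMac against MEF became 5173 without iMac library 1 and 5199 without iMac library 2. The 4 called in iMac against MCC became 2734 with DESeq2, 1377 with only the groups compared, 146 with limma-voom, 89 with no filter, 3 with library totals (1 higher, 2 lower), 0 with the block, and 0 to 1202 when a library was left out. The 49 pathway genes called in iMac against MEF became 30 without iMac library 1 and 32 without iMac library 2. The 0 called in iMac against MCC became 20 with DESeq2, 18 with only the groups compared, 6 with limma-voom, 4 with no filter and 5 without MCC library 2. Among list counts, the 2 falls of the efflux list in iMac became 0 with the filter of 5 CPM and 1 with the block. Its 1 fall in MCC became 0 with library totals, the filter of 5 CPM, the block and only the groups compared. The 4 uptake falls in MCC became 2 with only the groups compared, and the 5 falls of other LXR targets in MCC became 3 with library totals and with only the groups compared. Depth was not limiting for the 10 genes, whose lowest count was 69, while 2 libraries a group limit every test.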

Other observations

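The fibroblast libraries differed among themselves in genes of fat cells and of lipid synthesis. Of the 7 adipocyte markers, Adipoq was at 1.33 and 10.7 CPM, Cidec at 0.352 and 4.92 CPM and Fabp4 at 15.0 and 63.2 CPM in MEF libraries 1 and 2. Cfd was at 0.9753 and 0.9784 CPM, and Lep had 0 and 1 counts. Scd1 was at 234 and 536 CPM in the same libraries, Pparg at 4.20 and 12.5 CPM and Nr1h3 at 1.87 and 5.25 CPM. Of the 10 lipid uptake and efflux genes, 7 were higher in MEF library 2 while Nr1h2, Plin2 and Soat1 were higher in MEF library 1. No test was possible between single libraries.

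The markers of endothelial, muscle, granulocyte and lymphocyte cells each summed to at most 10.03 CPM in any iMac or MCC library. The 5 endothelial markers summed to 8.98 and 8.02 CPM in iMac, 8.11 and 10.03 CPM in MCC, and 33.5 and 43.6 CPM in MEF, with Emcn at 0 in iMac. Among them Pecam1, which leukocytes also express, had 3.55 and 3.50 CPM in iMac, 2.42 and 2.70 CPM in MCC, and 0.433 and 0.438 CPM in MEF. It was called higher in iMac (log2 fold change 3.01, edgeR adjusted p = 0.00142) and in MCC (log2 fold change 2.54, edgeR adjusted p = 0.00263), against MEF. The 5 muscle markers summed to 0.0298 and 0.151 CPM in iMac, 3.25 and 0.722 CPM in MCC, and 5.77 and 3.53 CPM in MEF, with Myod1, Ckm, Tnnt2 and Myh6 at 0 in iMac. Of 5 granulocyte markers 3 were in the table used here, and they summed to 0.507 and 0.151 CPM in iMac, 1.25 and 0.829 CPM in MCC, and 0.135 and 0.386 CPM in MEF. Of 5 lymphocyte markers 2 were in it, and they summed to at most 0.481 CPM in any library. With the other granulocyte and lymphocyte markers missing, these sums say little about those cells.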
